A study of Rattus with 4 samples.

Results

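The DEAD/DEAH-box RNA helicase genes examined here were Ddx46, Ddx23, Ddx39b, Dhx38, Dhx8, Dhx15, Ddx5, Ddx17, Ddx3x and Dhx9. They were chosen by name, with the peaks of these lists already known, and Ddx46 was singled out because its peaks recurred between the lists. Peaks from the RBM25 immunoprecipitates were taken as theirs where the deposited annotation assigned them to one of the 10 symbols. This gave 79 peaks of 10804 in all, in 7 genes of the 1914 genes with a peak. Dhx8, Dhx15 and Dhx9 had no peak in either list. The RNA came from H9C2 cells, a myoblast line from embryonic rat heart, in 2 RBM25 immunoprecipitates (IP) and 2 inputs, and the inputs were not analysed here. All samples were irradiated with 400 mJ/cm2 of ultraviolet light and the RNA was digested with micrococcal nuclease. The labels give no other genotype or treatment. The design text speaks of H9C2 cells with excess RBM25 for the RNA-seq of the study, and nothing in the labels says whether the cells of the IPs were of that kind.

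DEAD-box and DEAH-box proteins are named for a short amino acid motif of their ATPase core. They use ATP to unwind short RNA duplexes or to strip proteins from RNA. Several drive the steps of splicing: an intron is removed only after base pairs between small nuclear RNAs and the transcript have been opened and exchanged in order. RBM25 is a splicing factor associated with the U1 snRNP, the particle that recognises the 5′ splice site.

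Replicate 1 listed 2696 peaks and replicate 2 listed 8108, with a median of 24 and 26 tags per 50-nt bin. Tags were whole numbers in peaks of 51 nt and were the mean over bins in longer peaks. Library depth is unknown, the lowest peak of either list had 19 or 20 tags, and the tags were not scaled for depth. They are used here to describe and rank peaks within a list, and no test between the replicates or between genes was made. A gene without a peak may have little RNA in these cells or little bound RNA, and the lists cannot tell these apart. Percentages with a range carry a 95% Wilson interval over peaks, which covers counting error only. Coordinates are those of the rat build mRatBN7.2.

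The helicases had 16 peaks in replicate 1 and 63 in replicate 2. Ddx46 held 10 of the 16 in replicate 1 and 15 of the 63 in replicate 2. It ranked 28th of 922 genes by number of peaks in replicate 1 and 76th of 1819 in replicate 2. Ddx39b followed with 2 peaks in replicate 1 and 13 in replicate 2. Ddx23 and Ddx17 had 2 and 6 peaks each. Ddx5, with 10 peaks, Ddx3x, with 9, and Dhx38, with 4, had peaks in replicate 2 alone. The median gene with a peak had 2 in replicate 1 and 3 in replicate 2, so each of the 7 genes stood above that median in the longer list.

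**Figure D1:**
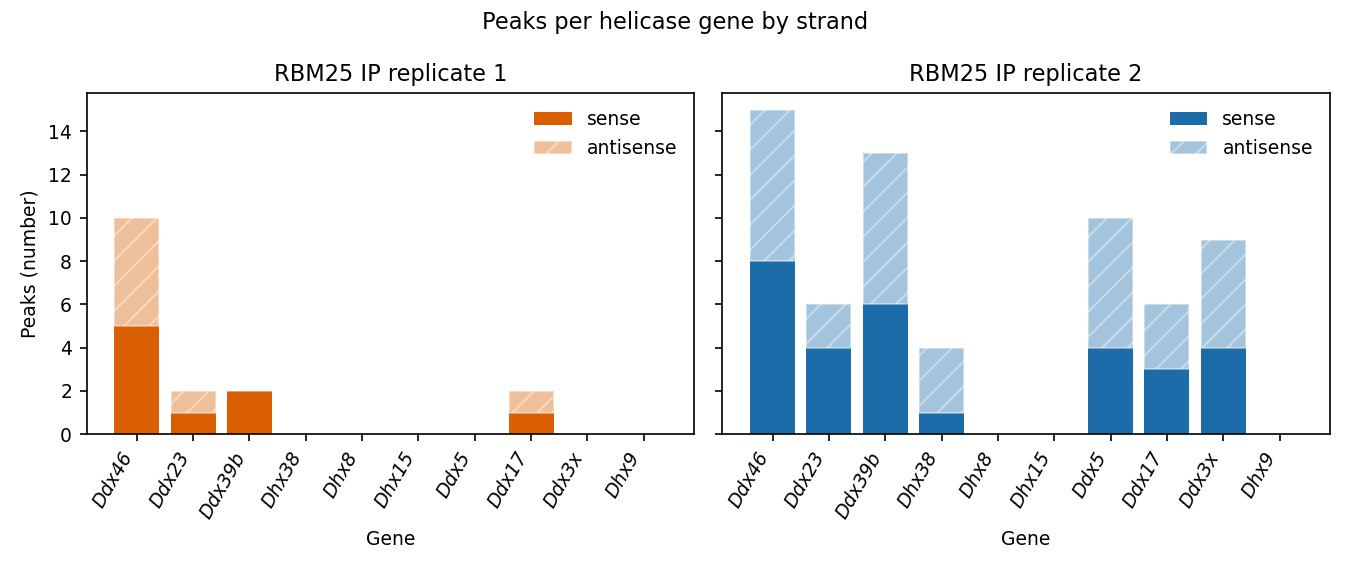
Number of peaks per helicase gene in the RBM25 IP lists of replicate 1 (left) and replicate 2 (right), with sense peaks in solid and antisense peaks in hatched bars. Ddx46 leads in both lists with 10 and 15 peaks, and Dhx8, Dhx15 and Dhx9 have none.

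All 7 genes with a peak lay on the minus strand, as read from the strand of their sense peaks. Among all genes whose peaks placed them on 1 strand, 51.8% were minus-strand genes (990 of 1912). Positions in these genes therefore run from high to low coordinates along the transcript.

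A peak was taken to recur when it shared a bin with a peak of the other list on the same strand. Of the 16 helicase peaks of replicate 1, 14 recurred (87.5%, 64.0 to 96.5), beside 61% of all replicate 1 peaks. From the side of replicate 2, 14 of 63 recurred (22.2%, 13.7 to 33.9), beside 20.3% of all its peaks. The members were chosen with recurrence known, so nothing is read from the first share. Without Ddx46 the counts were 4 of 6 in replicate 1 and 4 of 48 in replicate 2. By strand, 8 of 9 sense and 6 of 7 antisense helicase peaks of replicate 1 recurred, beside 64.6% of all sense and 60% of all antisense peaks. In replicate 2 the counts were 8 of 30 sense and 6 of 33 antisense peaks, beside 19.9% and 20.9%.

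Ddx46 encodes a helicase that helps the U2 snRNP to join the branch point, and its yeast counterpart is Prp5. Its peaks spanned 14951 nt of chromosome 17, from 8973350 to 8988300. All 10 replicate 1 peaks recurred, 5 on each strand. Of 60 genes with at least 8 replicate 1 peaks, 11 had all of them recur (18.3%). Of the 15 replicate 2 peaks, 10 overlapped a replicate 1 peak. The other 5 comprised 3 sense and 2 antisense peaks, with 21 to 39 tags.

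When peaks on either strand no more than 50 nt apart were joined into loci, Ddx46 had 7 loci, and each of the 7 held a peak in both lists. This joining was chosen after the data had been seen. Over all genes, 69.7% of replicate 1 loci and 26.7% of replicate 2 loci held a peak of the other list. In replicate 1, 3 of the 7 Ddx46 loci had peaks on both strands, 2 had a sense peak alone and 2 an antisense peak alone. In replicate 2, 6 of the 7 had peaks on both strands. The 5 extra replicate 2 peaks all lay within these 7 loci: 3 were the strand partner missing in replicate 1, and the other 2 stood next to a recurring peak.

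The most upstream Ddx46 locus was the bin at 8988250 to 8988300, with a fraction of 0.26 in 5′ UTR, 0.34 in coding sequence and 0.4 in intron. Its sense peak carried 24 tags in replicate 1 against 40 in replicate 2, where an antisense peak with 39 tags also stood. The next locus downstream, at 8984150 to 8984300, was the single Ddx46 locus with sense peaks alone in both lists. The recurring peak, at 8984150 to 8984200, reached 46 tags in replicate 1 and 55 in the other list, and a fraction of 0.34 of it was coding and 0.66 intronic. A further replicate 2 peak in coding sequence, at 8984250 to 8984300, had 21 tags.

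At 8982450 the antisense peak had the higher tags per bin in both lists. It was 51 nt long and carried 64 tags in replicate 1 and 84 in replicate 2. The sense peak from the same coordinate had 34.5 and 37, as means over 101 and 151 nt, so the strands are averaged over different lengths. The 64 tags were the highest Ddx46 value of replicate 1 and stood at the 97.3 percentile of that list. The highest value of replicate 2 lay at 8977600 to 8977650. There the antisense peak had 98 tags and the sense peak 95, the 99.1 and 99.0 percentiles of the list. Replicate 1 had a peak of 101 nt on each strand from 8977600 to 8977700, with a mean of 44 antisense tags and 37 sense tags per bin. The limits of the peaks thus differ between the lists at this locus, and these values average over different lengths.

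The other 3 loci lay at 8978550, 8974850 and 8973350. At 8978550 antisense tags were 46.5 in replicate 1 and 43 in replicate 2, where a sense peak with 37 tags appeared too. At 8974850 to 8975000 both strands recurred with identical limits, with 28 and 40 sense tags and 33.3 and 41.7 antisense tags. The most downstream locus, at 8973350 to 8973450, was the weakest in replicate 1, with 20.5 antisense tags and no sense peak, and had 28.5 antisense and 23.5 sense tags in replicate 2. Long peaks were frequent in this gene: 7 of 10 in replicate 1 and 7 of 15 in replicate 2 were longer than 51 nt, beside 5.04% and 7.04% of all peaks. In the other helicases none of the 6 and 4 of the 48 peaks were longer than 51 nt.

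**Figure D2:**
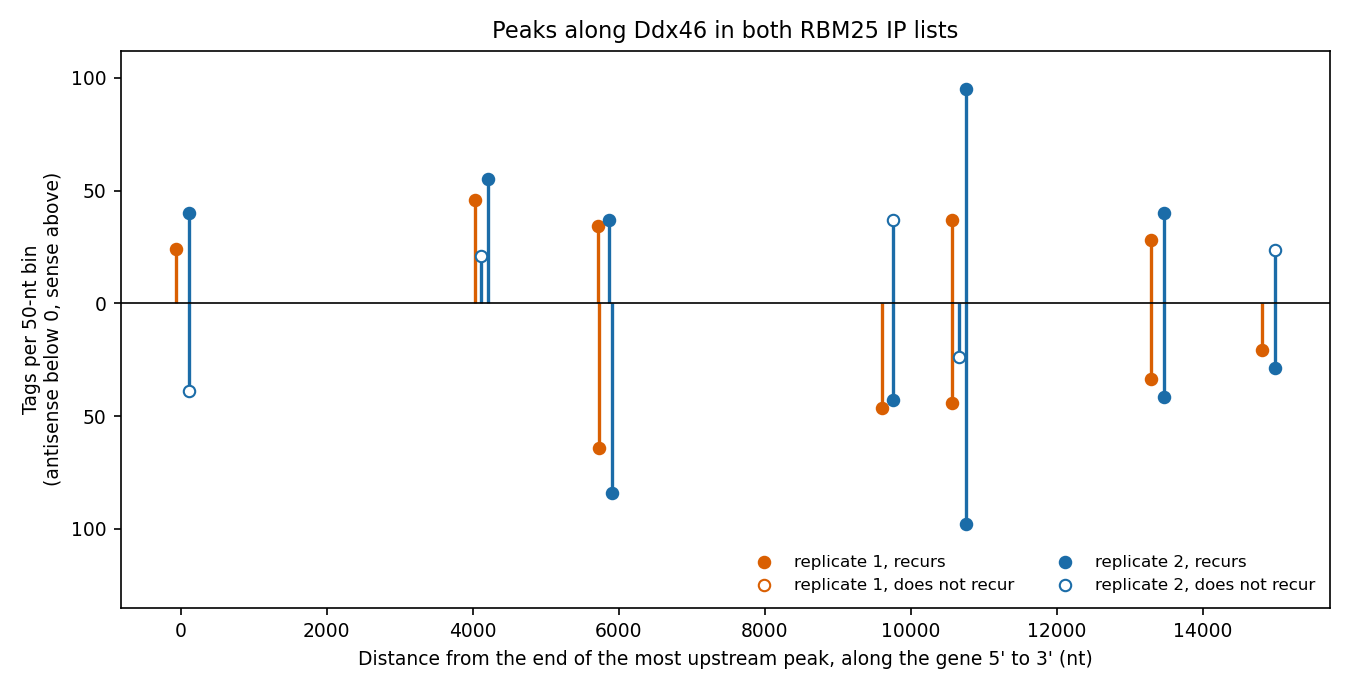
Tags per 50-nt bin of each Ddx46 peak against distance along the gene, with sense peaks above 0 and antisense peaks below; replicate 1 is orange, replicate 2 is blue, and the lists are drawn side by side for legibility. Filled points recur in the other list, and every one of the 7 positions holds both colours.

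Set beside Ddx46, the other helicases had fewer recurring peaks, 4 against 10 in each list. In replicate 1, 10 of 10 Ddx46 peaks recurred (72.2 to 100%) against 4 of 6 in the other helicases (30.0 to 90.3%). Over all replicate 1 peaks the share was 61%. The difference between Ddx46 and the other helicases was 33.3 percentage points, and it comes from the values that led to the choice of Ddx46. Its direction turned under some settings: with peaks at or below the median p-value of their list, 7 of 8 Ddx46 peaks and 3 of 3 of the other helicases recurred, beside 52.8% of all replicate 1 peaks so limited. With identical limits required, the counts were 6 of 10 and 4 of 6, beside 53.9% of all. In replicate 2, 10 of 15 Ddx46 peaks (66.7%, 41.7 to 84.8) and 4 of 48 peaks of the other helicases (8.33%, 3.29 to 19.6) recurred. Over all replicate 2 peaks the share was 20.3%. By loci, 7 of 7 replicate 2 loci of Ddx46 and 4 of 29 of the other helicases held a replicate 1 peak. Over all genes this was 26.7% of replicate 2 loci. Ddx46 was singled out for its recurrence, so these contrasts are descriptions.

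Ddx46 peaks also had more tags, a difference that was not tested. No measure of RNA amount stands beside these tags, and those of longer peaks are means over bins. The median of Ddx46 peaks was 35.8 tags in replicate 1 and 40 in replicate 2, against 29.5 and 25.5 in the other helicases. Ranked within its list, the median peak percentile was 86.5 and 83.7 for Ddx46, and 65.1 and 45.7 for the rest. These are medians of the percentiles of the peaks, not percentiles of the median tags. Over all replicate 1 peaks, 56.2% of those under 25 tags recurred, 69.9% of those with 25 to under 35 and 60% of those with 35 or more. Among helicase peaks in these classes, 3 of 5, 3 of 3 and 8 of 8 recurred. Ddx46 made up 2 of the 5, all of the 3 and 5 of the 8.

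**Figure D3:**
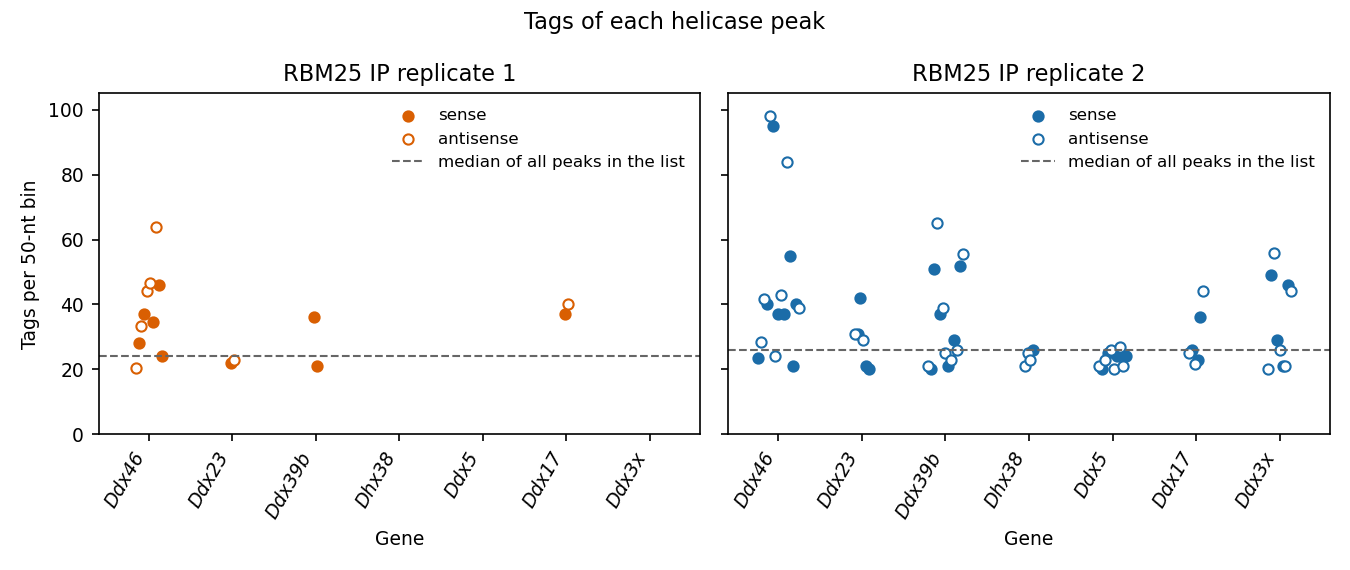
Tags per 50-nt bin of every helicase peak by gene, in replicate 1 (left) and replicate 2 (right), with sense peaks filled, antisense peaks open and the median of all peaks of the list dashed (24 and 26). Ddx46 reaches 64 and 98 tags, and all but 1 of the Ddx5 peaks, at 20 to 27 tags, lie at or below the line.

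Other spliceosomal helicases come next. Ddx39b encodes a helicase that acts in early spliceosome assembly and in export of spliced mRNA. Its peaks spanned chromosome 20, 3572650 to 3582250. Replicate 1 had sense peaks alone: 36 tags at 3572850 to 3572900, which recurred with 51 tags in replicate 2, and 21 tags at 3574600 to 3574650, which did not recur. From 3574600 the nearest replicate 2 peak was 1200 nt away. An antisense peak with 65 tags, the highest Ddx39b value, faced the recurring sense peak in replicate 2 and had no counterpart in replicate 1.

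Replicate 2 held 6 further Ddx39b loci. The most upstream, at 3582150 to 3582250, had 52 sense and 55.5 antisense tags, and the nearest replicate 1 peak was 7500 nt away. Another pair at 3573350 to 3573400 had 37 sense and 39 antisense tags. At the downstream end, 3572650 to 3572700, the sense peak was wholly in 3′ UTR and had 20 tags, with 21 on the antisense strand. This was the sole helicase peak with any 3′ UTR sequence. Remaining Ddx39b peaks had 21 to 29 tags. The paralog Ddx39a had 2 peaks in replicate 2, up to 21 tags, and how reads that match both genes were treated is not given in the sources used here.

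Ddx23 encodes the helicase that exchanges U1 for U6 snRNA at the 5′ splice site, the counterpart of yeast Prp28. It lies on chromosome 7 and had peaks from 129803900 to 129809750. A sense peak recurred at 129809400 to 129809450, with a fraction of 0.7 in coding sequence and 0.3 in intron. It carried 22 tags in replicate 1 against 21 in replicate 2, close to the lowest value of each list. The other replicate 1 peak was antisense, at 129809700 to 129809750 with 23 tags. In replicate 2 the adjoining bin, 129809650 to 129809700, had a sense peak with 20 tags, so the lists met at this place without a shared bin or strand. The tallest Ddx23 peak was at 129804300 to 129804350 in replicate 2, where 42 tags lay on the sense strand, a fraction of 0.84 intronic, and no antisense peak faced it. A pair at 129803900 had 31 tags on each strand.

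Dhx38 encodes the helicase that remodels the spliceosome before the second step, the counterpart of yeast Prp16. It had 4 replicate 2 peaks on chromosome 19, between 37522700 and 37526900, and none in replicate 1. The sense peak at 37526850 to 37526900 had 26 tags and its antisense partner 23. The other peaks were antisense, with 25 and 21 tags. Dhx8, which encodes the helicase that releases the spliced mRNA, and Dhx15, which encodes the helicase that takes spent spliceosomes apart, had no peak in either list.

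The paralogs Ddx5 and Ddx17 encode helicases that act in transcription and alternative splicing. Ddx17 had a recurring pair of peaks at chromosome 7, 111100400 to 111100450. Sense tags there were 37 in replicate 1 against 36 in replicate 2, and antisense tags were 40 against 44. A fraction of 0.34 of the bin was coding and 0.66 intronic. The other Ddx17 peaks, at 111099300 and 111098800 in replicate 2, had 21.5 to 26 tags on both strands. Of the 10 genes, Ddx17 and Ddx46 were the ones with a recurring antisense peak.

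Ddx5 had all of its 10 peaks in replicate 2, on chromosome 10 from 91727050 to 91731400. They were uniformly low, with 20 to 27 tags, a median of 23.5 tags and a median peak percentile of 33.9 in the list. All 4 sense peaks held more intron than coding sequence, with intronic fractions of 0.94, 0.68, 0.52 and 0.96 from the most upstream to the most downstream. Each of them faced an antisense peak, with 21, 27, 26 and 23 antisense tags. Reads that match both Ddx5 and Ddx17 may have been placed in either gene, since their treatment is not given in the sources used here.

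Ddx3x encodes a helicase that serves translation initiation on structured mRNAs. It had 9 peaks in replicate 2 alone, on the X chromosome between 9482100 and 9487750. The tallest pair was at 9482300 to 9482350, with 49 sense and 56 antisense tags, the 91.0 and 94.1 percentiles of the list. A further pair at 9487700 to 9487750 had 46 sense and 44 antisense tags. At 9482650 the sense peak had 29 tags and the antisense peak 26, and the other Ddx3x peaks had 20 or 21. In contrast to Ddx5, all 4 sense peaks of Ddx3x held more coding sequence than intron, with coding fractions of 0.54 to 0.76. Peaks as tall as the strongest Ddx3x pair were thus seen without any counterpart in replicate 1. Dhx9, which encodes RNA helicase A, had no peak.

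**Figure D4:**
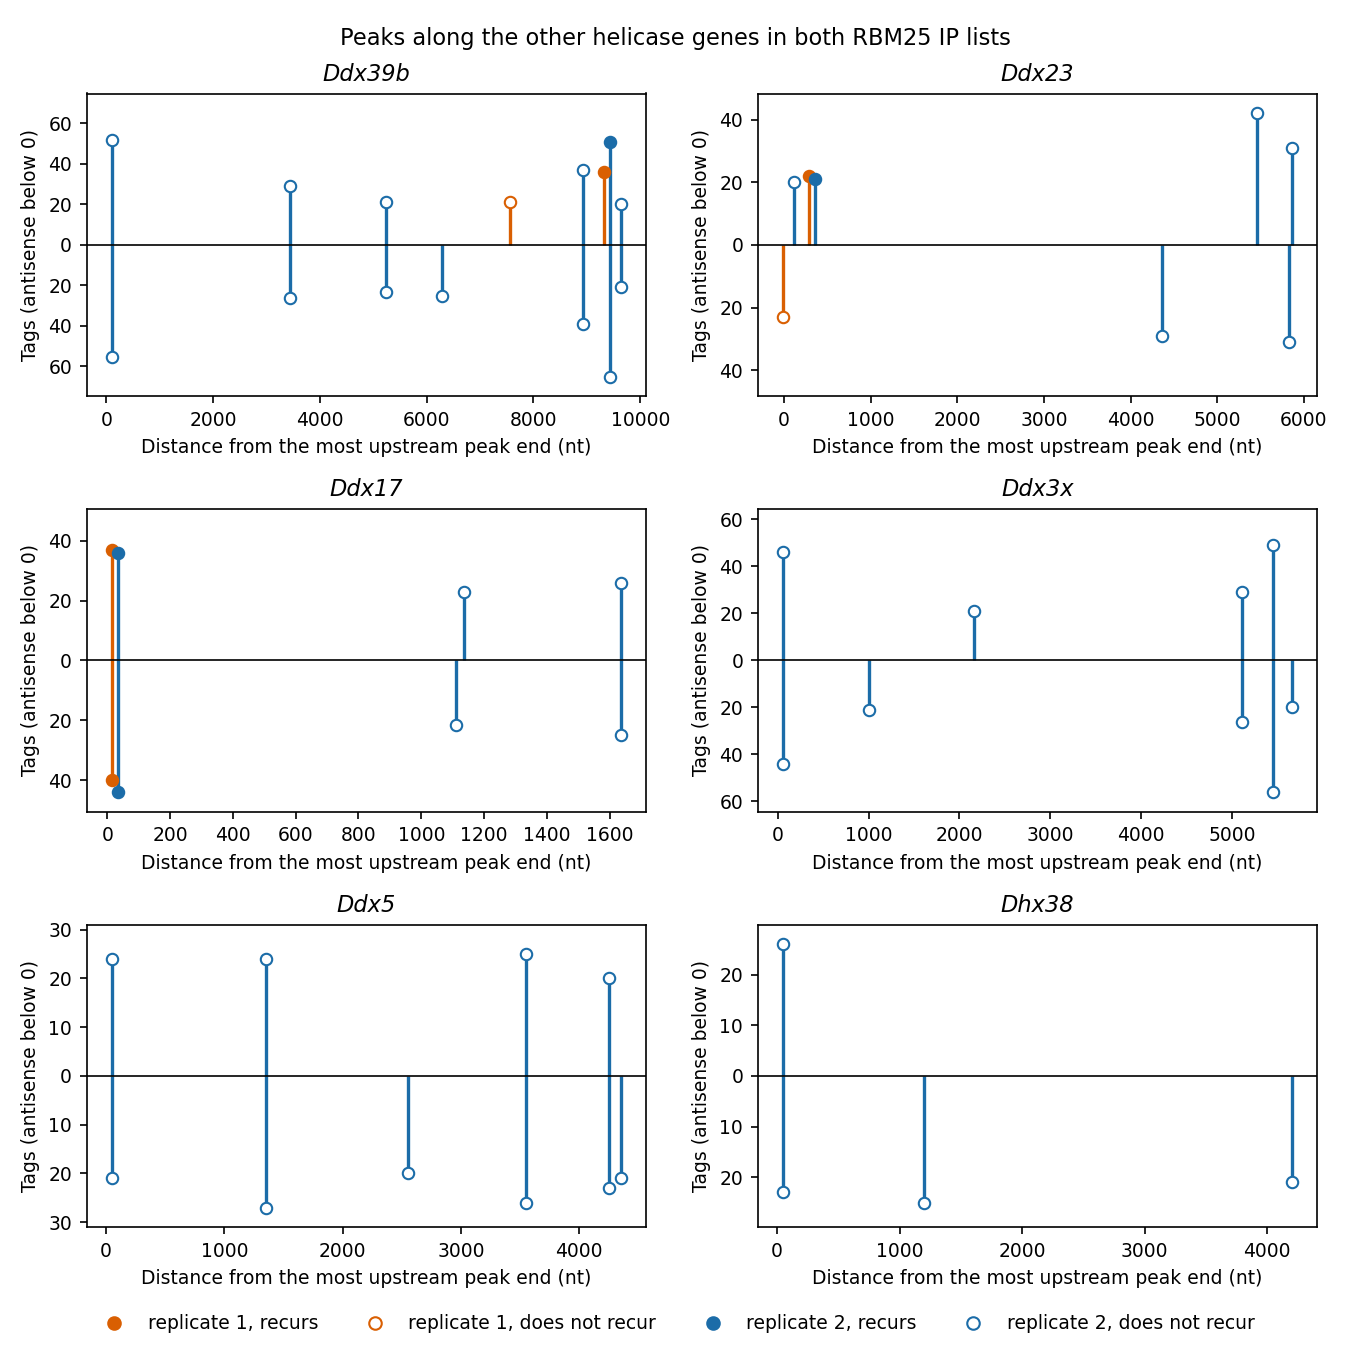
Tags per 50-nt bin of each peak of the other 6 helicase genes with peaks, against distance along the gene from 5′ to 3′, with sense above 0 and antisense below, replicate 1 in orange and replicate 2 in blue (drawn side by side). Filled points recur: 1 position in Ddx39b, 1 in Ddx23 and 1 in Ddx17, while Ddx3x, Ddx5 and Dhx38 have replicate 2 peaks alone.

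Across the 14 recurring helicase peaks, replicate 2 had more tags in 11, with a median ratio of 1.28 and a range of 0.925 to 2.57. Both ends of that range come from Ddx46 pairs whose limits differ between the lists, so that their tags average over different lengths. In the 10 pairs with identical limits, a subset chosen after seeing the data, replicate 2 had more tags in 8, the median ratio was also 1.28 and the range was 0.955 to 1.67. Over all 1645 recurring pairs, replicate 2 had more tags in 76.0% and the median ratio was 1.24, so the helicase pairs were close to the whole. The exceptions among the 14 helicase pairs were the sense peaks of Ddx23 and Ddx17 and the antisense Ddx46 peak at 8978550. Spearman's rho between the lists was 0.740 over the 14 pairs, given as a description: 10 of the points come from Ddx46, and peaks of a gene share their library.

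Most sense peaks of the helicases crossed a boundary between exon and intron. All 9 sense peaks of replicate 1 and 26 of 30 in replicate 2 held both exon and intron sequence, beside 67.8% and 71.2% of all sense peaks. Pooled over the lists this was 35 of 39 (89.7%, 76.4 to 95.9), against 3546 of 5048 sense peaks outside the helicase genes (70.2%, 69.0 to 71.5). No test was made, since peaks of a gene are not independent. In each list 8 of these sense peaks recur, so their positions enter the pooled share once per list. The intervals treat all peaks as independent and do not stand for a test. In Ddx46 the count was 12 of 13 and in the other helicases 23 of 26. The 4 exceptions, all in replicate 2, were the Ddx39b peak in 3′ UTR and peaks wholly in coding sequence in Ddx39b, Ddx23 and Ddx46, with 20, 21, 31 and 21 tags. In the boundary peaks the median coding percentage of the bins was 66% in the helicases and 56% over all peaks. By the class that covers most of a peak, 25 of the 39 sense peaks were in coding sequence (64.1%) and 13 in introns (33.3%), beside 59.3% and 31.3% of all sense peaks. A further 1 was in 3′ UTR and none in 5′ UTR or noncoding exon, classes that held 1.28%, 5.27% and 2.83% of all sense peaks and so few or none in a set of this size.

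Strand was close to even. Antisense peaks made up 7 of 16 in replicate 1 and 33 of 63 in replicate 2, beside 53.7% and 50.7% of all peaks assigned to genes. Pooled, 40 of 79 were antisense (50.6%, 39.8 to 61.4). Facing peaks were common. In replicate 2, 24 of 30 sense and 24 of 33 antisense peaks had a peak opposite them, beside 73.5% and 67.2% of all such peaks. In replicate 1 the counts were 4 of 9 and 4 of 7, beside 50.5% and 41.9%. By loci, 4 of 12 in replicate 1 and 24 of 36 in replicate 2 had both strands, beside 33.6% and 54.5% of all loci. Facing peaks were thus more frequent in replicate 2 than in replicate 1 among the helicases and over all peaks alike.

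Tags on opposite strands were near equal in most facing pairs. The median antisense percentage of tags was 54.3% over 4 pairs in replicate 1 and 51.1% over 24 pairs in replicate 2, beside medians of 51.2% and 51.1% over all pairs. The widest departure was Ddx46 at 8982450, where antisense tags made up 65.0% in replicate 1 and 69.4% in replicate 2. The sense peaks there were longer, 101 and 151 nt, so their tags average over more bins than those of the 51-nt antisense peak. In the other helicases the range was 46.7 to 56.0% in replicate 2. A pair enters only where both strands had a peak, so a near-equal median is partly set by the lists themselves.

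**Figure D5:**
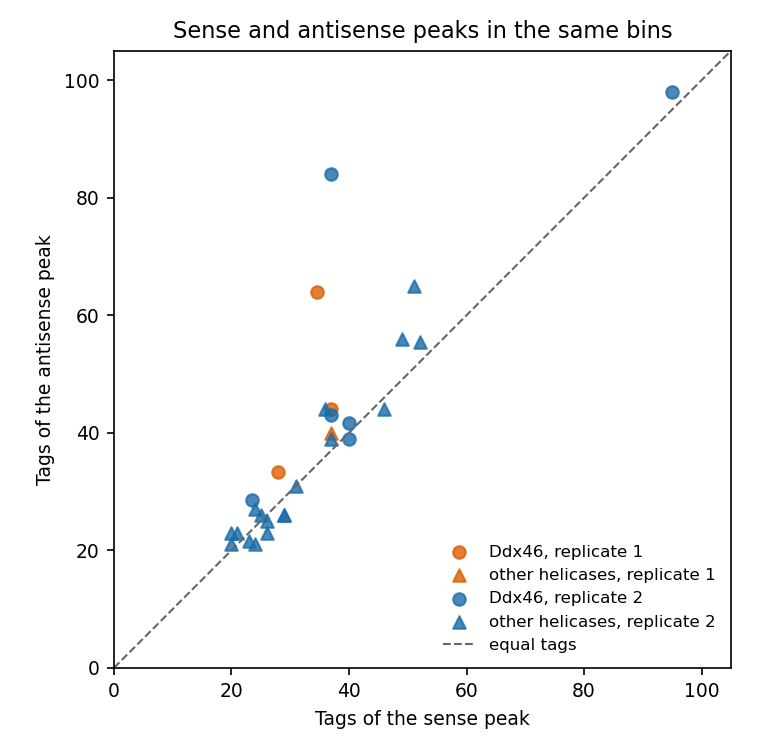
Tags of the antisense peak against tags of the sense peak for each pair that shares a bin in a helicase gene, with Ddx46 as circles and the other helicases as triangles, in replicate 1 (orange) and replicate 2 (blue). The dashed line marks equal tags. Most pairs lie near the line, and the Ddx46 pair at 34.5 and 64 tags in replicate 1 and at 37 and 84 in replicate 2 lies above it.

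The wider family held further peaks. In a list of 59 DEAD/DEAH-box genes that includes the 10 genes above, 57 matched a symbol or synonym of the RefSeq name table and 21 had a peak. The share of all annotated genes with a peak was not computed, so nothing is read from this count. All 21 had one in replicate 2 and 9 had one in replicate 1. Each of those 9 also had a recurring peak, 4 among the 10 genes above and 5 outside them, beside 70.7% of all genes with a replicate 1 peak. Peaks in both lists were found in 9 of the 21, beside 43.2% of all genes with a peak. Outside the 10, Ddx1, a helicase of the tRNA ligase complex, had 21 peaks in replicate 2, more than Ddx46, and 1 in replicate 1. That peak recurred with 32 and 47 tags. The other genes with recurring peaks were Ddx19a, an mRNA export helicase, with 26 tags in replicate 1 and 58 in replicate 2, Ddx21, which acts on ribosomal RNA in the nucleolus, with 37 and 42, Ddx41 with 28 and 33, and the translation factor gene Eif4a1 with 24 and 32. Ddx54 had 9 peaks in replicate 2 alone, up to 51 tags.

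Helicases of other families and partners of helicases were listed too. Of 10 helicases outside the family, Upf1, the helicase of nonsense-mediated decay, had a recurring sense peak with 21 tags in each list. Snrnp200, which encodes the helicase that unwinds U4 from U6 snRNA, had 2 sense peaks in replicate 1 and 1 antisense peak in replicate 2, without overlap. Of 28 partners, 7 had a peak, a count that again has no share of all annotated genes beside it. Of the 7, 5 had a peak in both lists, beside 43.2% of all genes with a peak. All 5 with a replicate 1 peak had a recurring one, beside 70.7% of all such genes. These were Rbm5 and Zgpat, which encode G-patch proteins, Casc3 and Rbm8a of the exon junction complex, and Zc3h11a, which is tied to mRNA export. Zc3h11a had 6 peaks in replicate 1, of which 4 recurred, and Rbm5 had 4, of which 3 recurred. The strongest recurring peaks of the 5 genes had 19 to 25 tags in replicate 1, a range that also holds the 22 tags of Ddx23, while Ddx39b, Ddx17 and Ddx46 reached 36, 40 and 64.

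Among 55 genes with at least 8 peaks in each list, those most like Ddx46 outside these lists were Suds3, Akap8 and Pcyt2. Likeness was the sum of the absolute differences in 3 shares, the recurring share of replicate 1 peaks and the antisense share in each list. In these genes, as in Ddx46, every replicate 1 peak recurred (8 each) and 50% of replicate 1 peaks were antisense. The antisense percentage in replicate 2 was 46.2% in Suds3 and 50% in Akap8 and Pcyt2, beside 46.7% in Ddx46. All 3 shares had ranked the genes, so their closeness to Ddx46 is set by the choice.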

How the data were processed

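The deposited peak lists hold 1 RBM25 IP sample each, by their names. Per the submitters' processing notes, HISAT2 and mRatBN7.2 were used; how peaks were called and filtered, and whether the inputs were used, is not given in the sources used here. Libraries were stranded, with reads of 150 nt in pairs, per the labels' protocols. How well the lists separate the strands was not tested, so an antisense peak is not shown to be antisense RNA. The authors' tags are a signal per 50-nt bin, per the file headers and values, and the deposited p-value of each peak was used only to split a list at its median. Library depth is unknown, which limits what a list could show.

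Members were matched by gene symbol. Recurrence is an overlap of at least 1 bin on the same strand, and peaks that only touch do not count. Sense, antisense and location follow the deposited annotation. No test was made, since each list is 1 library and peaks are not replicates. The labels do not say whether the replicates were separate cultures. Sequence was not used here. Members, gene lists and likeness were chosen with earlier results of these data known. Named genes are the members, listed genes with a recurring peak and the 3 genes most like Ddx46; Ddx39a, Ddx54 and Snrnp200 were named after their values were seen. Symbols were checked against a RefSeq table (assembly GRCr8). Loci and classes of tags were added after seeing the data. The overlap routine was tested on simulated data. Scripts ran in Python 3.11.15 with pandas 2.3.3 and numpy 2.4.6 for tables, scipy 1.17.1 for intervals and correlation, and matplotlib 3.10.9 for plots.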

Additional observations from a re-analysis of the deposited data

How the results depend on the processing

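No paired analysis was possible because peak lists of the IPs alone were analysed and no result comes from a test. Members are few, so intervals are wide and moves of many points can lie within them. Recurrence of replicate 1 helicase peaks was 87.5%, and 62.5% with identical limits (53.9% over all peaks). In classes of tags chosen after seeing the data, recurrence was 60% from 19 to under 25 tags, 100% from 25 to under 35 and 100% from 35 (5, 3 and 8 peaks). Over all replicate 1 peaks the shares in these classes were 56.2%, 69.9% and 60%. Without Ddx46 the recurrence of helicase peaks was 66.7%, and with loci 91.7%, where the lead of Ddx46 was 20 points. The 33.3-point lead of Ddx46 over the other helicases turned to -12.5 points with peaks at or below the median p-value of their list, where the sense peak at 8982450 lost its partner, and to -6.67 points with identical limits. Sense peaks mostly in coding sequence were 64.1%, and 97.4% with coding sequence at any overlap, since most straddle a boundary. Leaving out each replicate gave 43.8 to 52.4% antisense peaks and 86.7 to 100% boundary peaks. It also gave 9 to 21 family genes with a peak, the 9 in replicate 1 alone. The median tag percentile of helicase peaks was 61.0 with both replicates and 48.3 to 85.9 with each left out. It was 46.0 without Ddx46 and 48.3 with 51-nt peaks alone. Depth is unknown, so the absence of a peak in the shorter list is not the absence of bound RNA.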
